A study of Mus musculus with 2 samples.

Results

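The cells described here are a mesenchymal population of the embryonic mouse eye marked by the forkhead factors Foxc1 and Foxf2 and by Aldh1a2. They were picked by transcripts counted in the same cells. A cell was a member when it had at least 200 genes, at least 2000 unique molecular identifiers (UMIs, 1 per captured transcript) and at most 15% mitochondrial UMIs, with UMIs of at least 4 of the 7 rule genes Spp1, Mgp, Cldn11, Foxf2, Foxc1, Aldh1a2 and Tmem100. It could show at most 1 gene of each of 4 excluded sets, which were Scx, Tnmd, Meox2 and Mkx of tendon, then Osr2, Foxl2, Tbx22 and Alx1, then Kera, Matn4 and A2m of corneal keratocytes, and last C1qa, C1qb, Pecam1 and Cdh5 of macrophages and endothelium. The rule found 1098 members among 20430 kept cells, of which 636 were control and 462 were mutant. Levels of the rule genes and of the excluded genes therefore describe the choice and are given with no test.

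Periocular mesenchyme comes from cranial neural crest and mesoderm, surrounds the optic cup, and forms the sclera, the choroidal stroma, the cornea and the sheaths of vessels and of the optic nerve. FOXC1 and its relatives pattern this tissue. Retinoic acid is made from vitamin A by the ALDH1A enzymes, binds RAR receptors in nearby cells, and is broken down by CYP26 enzymes, so that cells next to a source switch on Rarb, Cyp26a1 and Dhrs3.

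The study asked what loss of Myrf, a membrane-bound transcription factor, does to the retinal pigment epithelium (RPE) and to neighbouring cell types. Single-cell RNA was counted at e15.5 in 1 library per genotype, each from 3 pooled eye cups from which cornea, lens and optic nerve had been taken off. The control was Myrf fl/fl, with both Myrf copies floxed and no Cre in its label. Mutant eye cups were Rx>cre Myrf fl/fl. They had the same alleles plus Cre under the control of Rx, a gene of the early eye field, from which retina and RPE arise. With 1 library per genotype there is no replicate of either genotype, and nothing between genotypes was tested. All intervals below are exact 95% intervals that cover counting error only, and they are too narrow where a few cells carry a gene. Embryo, litter, sex and capture cannot be told apart from genotype.

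The members were deep cells. Their median was 16068 UMIs in control and 16012 in mutant, with 4197 and 4164 genes, against 11726 and 10521 UMIs over all kept cells. No control member had a UMI of a Y-linked gene (0 of 636, which by a limit of 3 counts allows a share of up to 0.472%), while 57.4% of mutant members did, so the pools differed in the sex of their embryos. Haemoglobin exceeded 1% of UMIs in 9 control and 8 mutant members. The libraries shared 69 barcodes in all, and no barcode was a member in both. Scrublet called 39 control and 29 mutant members doublets, or 6.13% and 6.28%, and these calls were kept in. Myrf itself was sparse in members, with 31 UMIs in 25 control cells and 17 UMIs in 15 mutant cells (2.79 and 2.12 CPM, UMIs per 1e+06 UMIs of the group), and the ratio of 0.761 had an interval of 0.395 to 1.42. In erythroid cells Myrf was at 3.71 CPM in control and 0.668 CPM in mutant, and in neural retina cells at 1.78 and 0.585 CPM. Whether the UMIs in members came from free RNA was not tested. Reads came from transcript 3′ ends, so the Myrf counts do not check the deletion.

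The members were mesenchyme by genes outside the rule. At least 3 of Col1a1, Col1a2, Col3a1, Pdgfra, Twist1 and Prrx1 were seen in 99.4% of members in each library. These 6 genes summed to 5386 and 6322 CPM in members, below the 13055 and 17677 CPM of other mesenchyme, which was chosen by them. Markers bearing on the name perivascular or sheath-like were mixed. At least 3 of the 16 pericyte and smooth muscle genes were seen in 65.4% of control and 73.4% of mutant members. Genes of pericytes and vascular smooth muscle summed to 946 CPM in control and 1222 CPM in mutant members, against 391 and 477 CPM in the other mesenchyme, but Rgs5, a regulator of G protein signalling that marks pericytes, was at 59.9 and 105 CPM in members against 500 and 738 CPM in pericyte-like cells (41 cells per library). Those cells were themselves chosen by UMIs in at least 3 of 6 pericyte genes, Rgs5, Kcnj8, Abcc9, Notch3, Pdgfrb and Cspg4, so their high Rgs5 is set by that choice. Of the 25 meningeal fibroblast genes, at least 3 were seen in 99.2% of control and 99.6% of mutant members, with a median of 7 per member, and 22 and 23 had UMIs. They summed to 2281 and 2252 CPM in members, below the 4115 and 4736 CPM of the other mesenchyme. The transporter genes Slc22a6 and Slc13a4 were at 0 in members of both libraries, for which a limit of 3 counts corresponds to 0.27 CPM in control and 0.375 CPM in mutant. They are therefore called Foxc1/Foxf2/Aldh1a2 mesenchyme here. Markers of some other classes were sparse. No member had 3 or more of the 8 immune genes, some of which the rule limits, and 8 control and 4 mutant members had 3 or more RPE genes, with Rpe65 at 0. Others were common. At least 3 genes were seen of the endothelial list in 35.1% of control and 41.3% of mutant members, of the erythroid list in 43.6% and 36.6%, of the bone and cartilage list in 20.3% and 16.7%, and of the 14-gene neural retina list in 17.8% and 27.5%. The part of these markers in the results below was not tested, other than by leaving out members with retina genes or over 1% haemoglobin. The endothelial genes summed to 319 and 370 CPM in members against 165 and 188 CPM in other mesenchyme. The retina genes summed to 526 CPM in control and 662 CPM in mutant members, and to 729 and 1023 CPM in the other mesenchyme.

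The rule genes were not evenly spread over the members. Foxc1, on chromosome 13 (GRCm38, 31806633 to 31812476), was found in 94.8% of control members and 95.7% of mutant ones. Its neighbour Foxf2 (31625816 to 31631403 on the same strand, ending 175230 bases before Foxc1 starts) was seen in 58.8% and 56.7%. These shares follow the rule and the depth of the cells. With each cell thinned to 2000 UMIs, Foxc1 was seen in 43.7% and 37.7% of these members and Foxf2 in 15.1% and 13.2%. Mgp, an inhibitor of matrix calcification, was seen in 90.3% and 95%, Cldn11, a tight junction claudin, in 72.5% and 70.3%, and Aldh1a2, a retinoic acid synthesis enzyme, in 66.2% and 68.2%. Tmem100, a membrane protein of the BMP pathway in endothelium, was seen in 66.4% and 60.4%, and Spp1, the secreted phosphoprotein osteopontin, in 59.1% and 52.8%. In neural retina cells, whose median depth was 10689 UMIs in control and 10063 in mutant and in which UMIs of these genes may come from free RNA or doublets, which was not tested, the shares were 4.03% and 3.28% for Foxc1, 0.201% and 0.344% for Foxf2, 3.45% and 3.74% for Mgp, and 1.67% and 1.27% for Spp1. In erythroid cells, as deep as the members (median 16872 and 16319 UMIs), they were higher, at 17.3% and 15.8% for Foxc1, 12.9% and 13.2% for Mgp and 5.58% and 4.76% for Spp1.

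**Figure D1:**
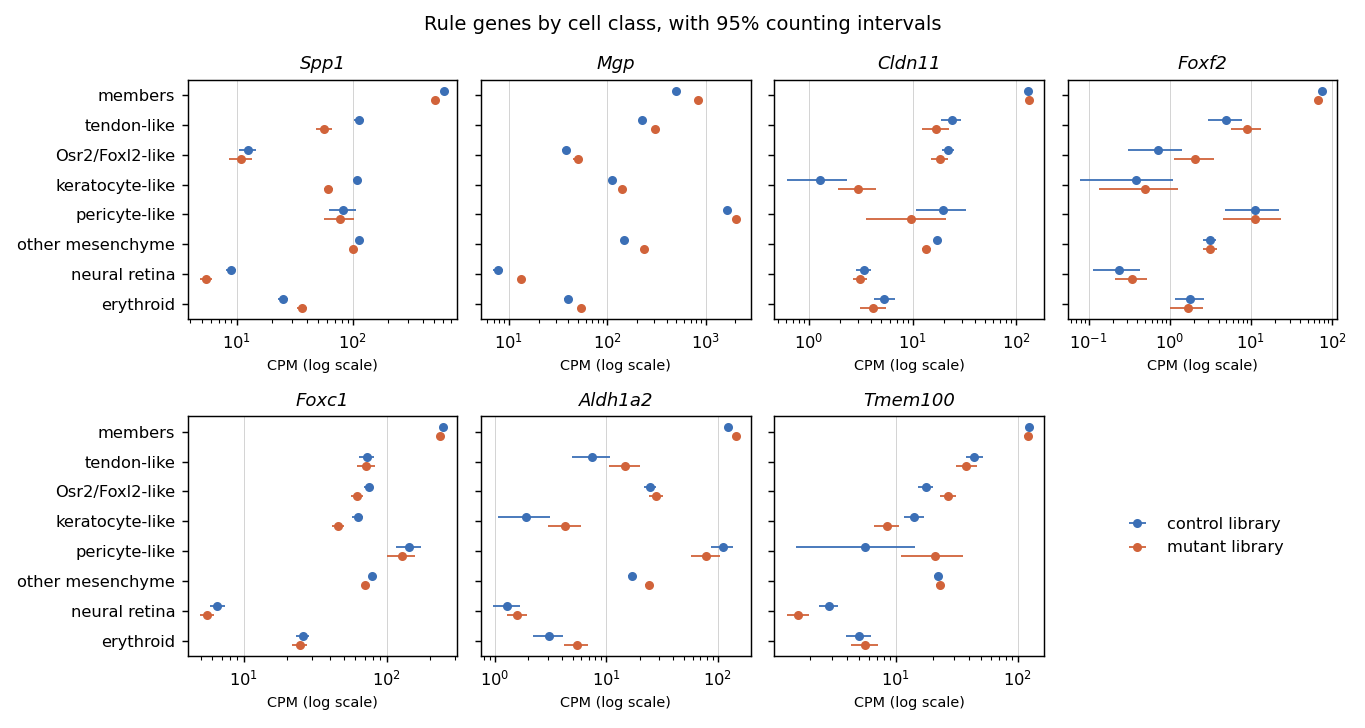
Levels of the 7 rule genes in members and in 7 other cell classes, in CPM of UMIs summed over the cells of a class (log scale), with exact 95% counting intervals and 1 point per library (blue control, orange mutant). Members sit highest for 6 of the 7 genes, which the rule itself fixes, while Mgp is higher in pericyte-like cells (1623 CPM in control) and Aldh1a2 in control pericyte-like cells is at 111 CPM against 123 CPM in members.

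Members could meet the rule by different genes. Among control members with Spp1, 55.1% also had Aldh1a2, against 82.3% of those without it, and the mutant values were 53.7% and 84.4%. Cldn11 followed the same order, at 65.4% of control members with Spp1 and 82.7% of those without. A cell that lacks 1 rule gene needs more of the others to be a member, so the rule alone pushes such pairs apart. Mgp went the other way, being seen in 94.1% of control members with Spp1 and 84.6% of those without.

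The number of rule genes per cell showed no gap at the threshold. With exclusions met, 239 control and 228 mutant cells had 3 rule genes and stayed out, and 208 and 183 had 4 and came in. Foxf2 stood at 17.2 CPM in control cells with 3 rule genes and at 34 CPM in those with 4, and Cldn11 at 35.5 and 87.6 CPM. Mgp did not follow this step in control, at 519 CPM with 3 genes and 447 CPM with 4. All 7 genes were seen in 58 control and 35 mutant cells, whose median depths of 20367 and 22182 UMIs were above those of cells with 4 genes (15670 and 14461). A further 117 control and 87 mutant cells had 4 or more rule genes and were left out by an excluded set, mostly that of Osr2 (65 in control and 37 in mutant) or of tendon (52 and 39).

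**Figure D2:**
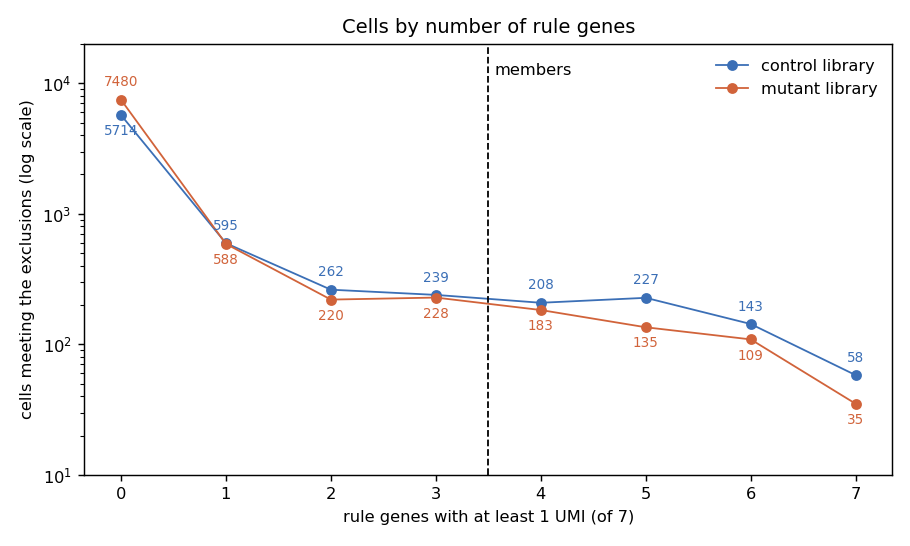
Number of kept cells that met the exclusions (vertical axis, log scale) by how many of the 7 rule genes had at least 1 UMI (horizontal axis), for the control (blue) and mutant (orange) library. Cells right of the dashed line are members, and the counts run on across the line, from 239 and 228 cells with 3 genes to 208 and 183 with 4.

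The share of members depended on what it was taken over. Members were 6.54% of kept control cells (636 of 9722, interval 6.06 to 7.05) and 4.31% of kept mutant cells (462 of 10708, 3.94 to 4.72), a ratio of 0.66 with a counting interval of 0.584 to 0.745. Over mesenchymal cells they were 19.4% of 3278 in control and 19.2% of 2410 in mutant, a ratio of 0.988 with an interval of 0.875 to 1.12. Without members that had 3 or more markers of another class, here neural retina, RPE, mural, Schwann, skeletal muscle or surface epithelium (188 control and 88 mutant members left) that ratio was 0.651, and the ratio over kept cells was 0.42. Mural genes alone met this limit in 65.4% of control and 73.4% of mutant members. With cells thinned to 2000 UMIs the ratio over kept cells was 0.479. The rest of the mesenchyme had a ratio of 0.669 over kept cells and neural retina cells one of 1.29. The lower share over all cells thus went with a lower share of all mesenchyme, and whether this came from the tissue or from dissection and capture was not tested.

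Genes outside the rule set the members apart from other mesenchyme within each library. The other mesenchyme was 2627 control and 1936 mutant cells with at least 4 of the 6 pan-mesenchyme genes, and it held the tendon-like, Osr2/Foxl2-like and keratocyte-like cells. Of 12752 genes with at least 50 UMIs in each library over both groups, 234 (1.84%) were at least 2-fold higher in members in both libraries and 616 (4.83%) were at least 2-fold lower. The median gene differed by -0.05 (log2) in control and by -0.02 in mutant. This is a description, since the same counts chose the cells. The 25 genes with the most secure excess, rule genes left out, are described below by what they do.

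Some of the 25 are known from vessels and mural cells, a grouping made after the ranking was seen. Emcn, the sialomucin endomucin best known from endothelium, was at 141 CPM in control and 167 CPM in mutant members, against 13.2 and 15.6 CPM in the other mesenchyme, a 10.7-fold difference in each library (9.69 to 11.8 and 9.67 to 12). It had UMIs in 57.4% of control and 62.8% of mutant members. Other endothelial genes went both ways. Of 9 endothelial list genes compared, 3 were at least 2-fold higher in members in both libraries and 2 were lower (against 1.84% and 4.83% of all genes), with medians of 0.96 and 0.69 (log2). Beside Emcn the higher ones were Eng (26 and 38.8 CPM against 12.5 and 18.7 CPM) and Plvap (4.77 and 5.62 against 0.882 and 0.86), and the lower ones were the receptor genes Kdr (15.2 and 12.6 against 59.7 and 57.5) and Tek (3.33 and 3.25 against 11 and 11.3). Pecam1 and Cdh5 were limited by the rule. Pgf, a VEGF family ligand, was at 99.1 and 92.1 CPM against 18.6 and 18.3 CPM. Gucy1a1, a subunit of the nitric oxide receptor, was at 62.3 and 94.4 CPM against 12.8 and 16.2 CPM, and Rgs5 at 59.9 and 105 CPM against 13.2 and 17.7 CPM. Epas1, the hypoxia-inducible factor HIF2A, was at 9.9 and 20 CPM against 1.61 and 2.94 CPM, and Heyl, a Notch effector, at 33 and 36.7 CPM against 4.56 and 7.21 CPM. Foxs1, another forkhead gene, was at 11.2 and 17.7 CPM against 0.907 and 2.02 CPM. Of these, Rgs5, Epas1, Heyl, Foxs1 and Gucy1a1 were higher still in pericyte-like cells of both libraries (Heyl 82.7 and 86.7 CPM, Foxs1 30.8 and 65.8 CPM).

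Fam162b had the largest ratio of the 25 in control. It was at 26.5 and 30 CPM in members against 0.932 and 2.02 CPM in the other mesenchyme, 28.4-fold (20.1 to 41.1) in control and 14.9-fold (11.2 to 20) in mutant, and it was seen in 17.5% and 18.4% of members. Crym, which encodes the thyroid hormone binding protein mu-crystallin, was the most widespread, in 90.7% of control and 88.1% of mutant members against 32.9% and 29.4% of other mesenchyme, at 497 and 446 CPM against 96.9 and 86.6 CPM. Edn3, the endothelin that acts on neural crest and melanoblasts through EDNRB, was at 66.9 and 67.1 CPM against 10.4 and 12.9 CPM. Sostdc1, a secreted antagonist of BMP and Wnt ligands, was at 105 and 114 CPM against 19 and 24.1 CPM. The serine protease gene Prss23 was at 285 and 246 CPM against 41.2 and 50.8 CPM, and Lypd1, whose product modulates nicotinic receptors, at 103 and 126 CPM against 14 and 21.1 CPM. Alpl, the tissue non-specific alkaline phosphatase, was at 12 and 22.9 CPM against 2.02 and 2.91 CPM. The ratios of a further 8 genes (Slc17a8, Shisa3, Mical2, F11r, Itgbl1, Fhl2, Ogfrl1 and Scube1) ran from 4.46 to 10.8. Set against the tendon-like, Osr2/Foxl2-like, keratocyte-like and pericyte-like cells, 19 of the 25 were highest in members in control and 18 in mutant, and the others were highest in pericyte-like cells. The 25 were ranked over other mesenchyme, which held the tendon-like, Osr2/Foxl2-like and keratocyte-like cells. Their order over those classes thus follows largely from the ranking.

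**Figure D3:**
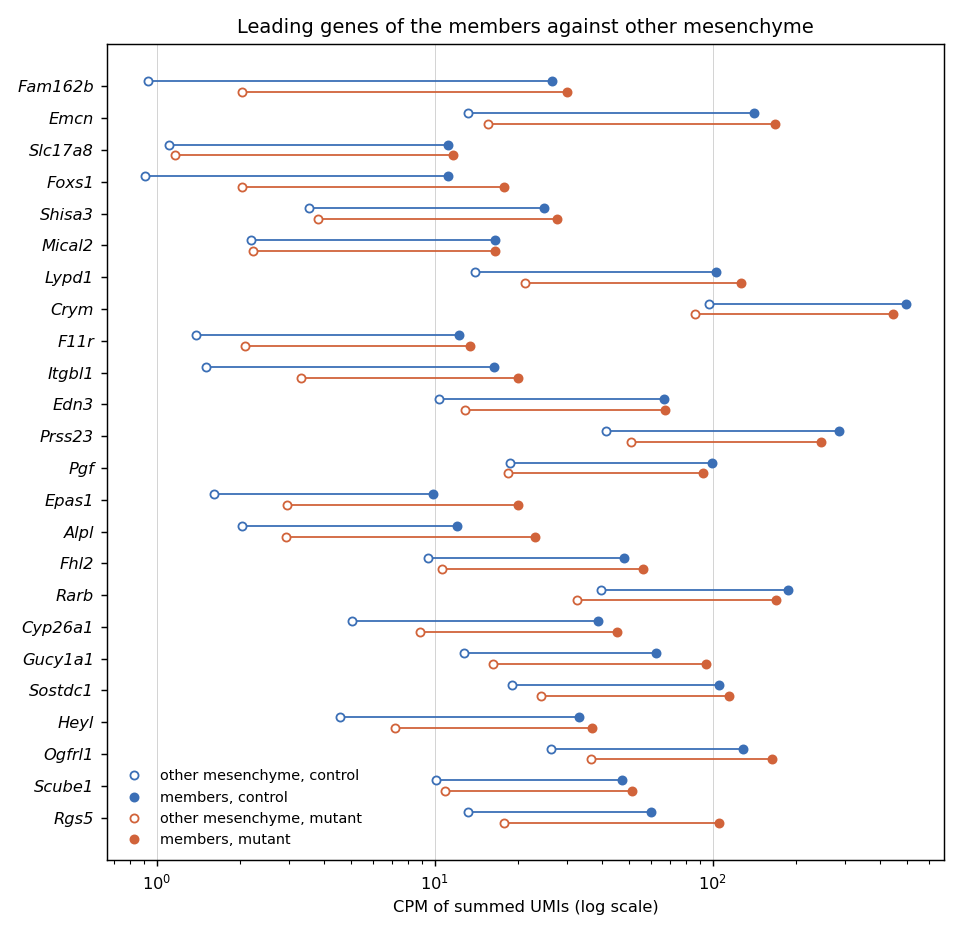
Levels of leading genes in members (filled) and in the other mesenchyme (open), in CPM of summed UMIs (log scale), for control (blue) and mutant (orange). For every gene shown the filled points of both libraries lie right of both open points, as the ranking requires, from Epas1 (9.9 against 1.61 CPM in control) to Crym (497 against 96.9 CPM).

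The 10 genes ranked lowest were mostly those the rule excludes. Kera, Matn4, Foxl2, Meox2, Tbx22, Osr2 and A2m belong to the excluded sets. The other 3 were Aldh3a1, Anks1b and a. Aldh3a1, the aldehyde dehydrogenase of the corneal cells, was at 0.36 CPM in control and 0.25 CPM in mutant members against 17.9 and 24.7 CPM in other mesenchyme, with 68.1 and 76.5 CPM in keratocyte-like cells. Anks1b was at 0.9 and 1.5 CPM against 29.7 and 48.6 CPM, and a, the agouti gene for a melanocortin receptor antagonist, at 3.42 and 3.62 CPM against 57.2 and 69.3 CPM. All 3 were highest in keratocyte-like cells, which the rule keeps out.

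Retinoic acid genes held both signs. Of 19 listed genes 18 could be compared, and 3 were at least 2-fold higher in members in both libraries while 1 was lower (against 1.84% and 4.83% of all genes), with a list median of -0.08 (log2) in control and -0.09 in mutant. The 3 are known to be induced by retinoic acid. They were Rarb, a receptor, at 187 and 169 CPM against 39.8 and 32.5 CPM, 4.7-fold (4.4 to 5.02) in control, Cyp26a1, which breaks retinoic acid down, at 38.6 and 45.3 CPM against 5.06 and 8.83 CPM, and Dhrs3, which reduces retinaldehyde back to retinol, at 91.3 and 82.8 CPM against 19.3 and 22.4 CPM. Rarb had UMIs in 84.4% of control and 82.5% of mutant members but Cyp26a1 in only 19.8% and 22.7%. The gene that was lower, Crabp1, encodes a cytoplasmic retinoic acid binding protein and was at 60.8 and 25.5 CPM against 239 and 253 CPM. Crabp2, which encodes a related binding protein and is also induced by retinoic acid, was at 136 and 135 CPM against 248 and 228 CPM. The synthesis enzymes other than Aldh1a2 differed little, with Aldh1a3 at 20.8 and 23.9 CPM against 19.1 and 23.1 CPM and Aldh1a1 at 4.86 and 6.5 CPM against 5.49 and 6.88 CPM. Receptors Rara and Rarg were at 42.3 and 33 CPM in control members against 42.5 and 39.9 CPM in other mesenchyme, so of the RAR genes Rarb alone was past 2-fold.

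The promoters of Rarb and Cyp26a1 hold textbook binding elements for retinoic acid receptors, and their letters are shown because both genes led the members. After the levels had been seen, a direct repeat of half-sites of 6 bases spaced by 5 bases, known as DR5, was looked for on both strands in RefSeq windows of 300 bases (GRCm38.p6, 250 before and 50 after each start). It was found in 32 of 32851 windows (0.0974%). Of the 25 leading genes 18 had a window and 2 held the element, Rarb and Cyp26a1. Of the 5 rule genes with a window none did. The 250 bases before each start are written below from 5′ to 3′ on the strand of the gene, with the 17 bases of the element in capitals. The Rarb window is chr14:16575477-16575726 on the minus strand and the Cyp26a1 window is chr19:37697558-37697807 on the plus strand. The Rarb gene spans 16430839 to 16819156, so its window lies inside the gene, before an internal start. The Rarb levels above are of the whole gene.
Rarb: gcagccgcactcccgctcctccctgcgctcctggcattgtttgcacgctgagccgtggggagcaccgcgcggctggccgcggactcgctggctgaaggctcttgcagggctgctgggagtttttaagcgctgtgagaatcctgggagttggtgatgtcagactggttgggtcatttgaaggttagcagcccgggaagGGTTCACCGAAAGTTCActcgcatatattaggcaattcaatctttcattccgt
Cyp26a1: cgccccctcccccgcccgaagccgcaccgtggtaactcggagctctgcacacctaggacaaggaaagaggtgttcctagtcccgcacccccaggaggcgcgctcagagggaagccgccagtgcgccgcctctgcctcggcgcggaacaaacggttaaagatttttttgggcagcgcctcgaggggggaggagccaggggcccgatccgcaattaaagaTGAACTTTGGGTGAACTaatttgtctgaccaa
The element runs from 53 to 37 bases before that internal Rarb start in the direction of the gene, and from 32 to 16 bases before the Cyp26a1 start on the opposite strand. A match of letters is a description and does not show that a receptor was bound in these cells.

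The members' transcription factor genes differed from those of other mesenchyme in both directions. Of 46 listed genes 42 could be compared, 5 were at least 2-fold higher in both libraries and 10 were lower (against 1.84% and 4.83% of all genes), with medians of -0.07 and 0.00 (log2). The 5 were Msx1 (11.1 and 11.2 CPM against 3.58 and 3.44 CPM), a BMP-induced homeobox gene, Foxd1 (31.2 and 28 against 11 and 10.3), Foxd2 (36.8 and 28.4 against 15.9 and 11.8), Tbx3 (15.3 and 20.2 against 5.87 and 7.77) and Nr2f2, a nuclear receptor of veins and mesenchyme (183 and 186 against 75.9 and 65.6). The lower genes included Twist2 (38.1 and 29 CPM against 190 and 195 CPM), Osr1 (7.11 and 10.7 against 36.8 and 35.7), Pitx1 (7.83 and 5 against 45.1 and 27.8), Tbx15 (7.02 and 8.74 against 28.7 and 21.1) and Prrx1 (189 and 144 against 397 and 357).

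Signalling lists had genes past 2-fold in both directions, beside 1.84% higher and 4.83% lower over all genes. In the hedgehog list 3 of 12 genes were at least 2-fold higher in members in both libraries and 2 were lower. The higher ones included the pathway's own response genes, with Gli1 at 33.1 and 25.6 CPM against 12.1 and 8.57 CPM and the receptor gene Ptch1 at 78.3 and 62.8 CPM against 29 and 23.5 CPM. The coreceptor genes Gas1 (283 and 305 against 693 and 609 CPM) and Cdon (15.1 and 12.5 against 50 and 52.1 CPM) were the lower ones. In the TGF-beta and BMP list of 32 genes 4 were higher and 7 lower. Those higher were the matrix gene Ctgf (94.1 and 87.8 CPM against 20.2 and 23 CPM), the ligand Gdf10 (62 and 67.3 against 17.2 and 28.1), the BMP response gene Id3 (1055 and 1136 against 431 and 491) and Smad9 (4.95 and 4.87 against 1.94 and 1.59). The secreted BMP antagonist genes Grem1 and Chrdl1, unlike Sostdc1, were among the lower ones. Grem1 was at 1.71 and 1.25 CPM against 28.7 and 26.5 CPM and Chrdl1 at 0.36 and 0.625 CPM against 3.78 and 4.6 CPM. In the Wnt list of 21 genes only Rspo2 was higher (6.48 and 10.6 against 2.77 and 4.5 CPM) and 4 were lower, with Wnt11 at 1.98 and 1.62 CPM against 32 and 43.2 CPM.

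Vessel signal genes went both ways and matrix genes were lower. Of 19 vessel signal genes 5 were at least 2-fold higher in both libraries and 3 were lower (against 1.84% and 4.83% of all genes; the same shares apply to each list here), with medians of 0.28 and 0.06 (log2). Beside Pgf these were the chemokine Cxcl12 (368 and 405 CPM against 153 and 174 CPM), the Tie2 ligand Angpt1 (49.9 and 47.8 against 16.8 and 23.5), Angptl4 (52.4 and 43.1 against 18.9 and 15.3) and the VEGF and semaphorin receptor gene Nrp2 (214 and 213 against 72.6 and 71.2). Vegfc was lower, at 4.5 and 5.25 CPM against 14.3 and 13.2 CPM, as were Sema3a and Sema3c. None of 39 extracellular matrix genes was at least 2-fold higher in both libraries and 16 were lower, with medians of -0.98 and -0.97 (log2). Col1a1 was at 1663 and 2027 CPM against 4477 and 6509 CPM although it was seen in 99.1% of control members, and Col6a2 was at 52.1 and 70.2 CPM against 346 and 478 CPM. Dlk1, an imprinted Notch-related ligand, was at 96.7 and 118 CPM against 636 and 745 CPM, while the secreted Igfbp7 was at 110 and 197 CPM against 25.8 and 49 CPM. Of 22 meningeal fibroblast genes 3 were higher (Wnt6, Cxcl12 and Alpl) and 6 were lower, among them Igfbp2 (675 and 708 against 1909 and 2588 CPM). In the list of pericyte and smooth muscle genes 7 of 15 were higher and none lower, with medians of 1.00 and 0.99, and Acta2, smooth muscle actin, was at 237 and 351 CPM against 59.6 and 111 CPM.

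Cell cycle genes were moderately higher in members. None of 18 reached 2-fold in both libraries, and they had a median of 0.81 (log2) over other mesenchyme in control and 0.48 in mutant. Mki67 was at 166 and 136 CPM against 79.6 and 97.1 CPM, and was seen in 38.7% of control members against 18.6% of other mesenchyme. Of 14 genes induced by tissue dissociation 5 were at least 2-fold higher in members in both libraries and 1 was lower (against 1.84% and 4.83% of all genes), with medians of 0.82 and 0.78. Egr1 was at 57.9 and 62.3 CPM against 14.6 and 15.7 CPM and Fos at 35 and 27.7 CPM against 9.45 and 7.87 CPM. The members were also deeper than the other mesenchyme (median 13754 UMIs in control and 14197 in mutant), and the part of depth in these values was not tested.

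Clustering the members on genes other than the rule and cell cycle genes gave 7 sub-clusters, numbered by size. The first held 146 control and 122 mutant cells. Its top-ranked genes were pigment cell genes, with Pmel at 250 CPM against 5.69 CPM in the other control members, but 97.2% of those Pmel UMIs lay in 5 cells. Genes spread over more of its cells were Ecm1, a secreted matrix protein gene seen in 51.4% of the control cells (201 against 23.2 CPM), and Ogfrl1, seen in 72.6% (317 against 83.3 CPM). Spp1, Lypd1 and Cyp26a1 were also high there, at 1149, 253 and 79.6 CPM in control and 1133, 293 and 78 CPM in mutant. The second sub-cluster, of 138 control and 76 mutant cells, was led by Prss35 (112 against 19.7 CPM in control) and Fam46a (465 against 103 CPM), the latter seen in 91.3% of its control cells. Fam162b, which led the whole group, was at 0.803 CPM there in control and at 0 in mutant.

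The fourth sub-cluster, of 82 control and 53 mutant cells, carried the most Aldh1a2, Cldn11, Tmem100 and Foxf2 of the 7 in both libraries, at 244, 223, 227 and 139 CPM in control and 299, 251, 212 and 126 CPM in mutant. It had little Spp1, at 65.9 and 22.1 CPM. It was led by Cdh10 (225 against 39 CPM in control), Alpl (48.7 against 8.15 CPM) and Tbx18, a T-box gene of mural and mesothelial lineages (139 against 30.1 CPM), and Emcn was at 394 and 433 CPM. The seventh, of 38 control and 56 mutant cells, was led by Angptl7 (57.3 against 1.5 CPM in control), and more widely by the matrix proteoglycan gene Vcan (571 against 47.6 CPM, in 94.7% of its control cells), Epha3 (229 against 22.3 CPM) and Ebf3 (142 against 12.6 CPM). Crym was at 1291 CPM there in control, Cxcl12 at 817 CPM and Foxd1 at 183 CPM. The third (113 and 71 cells) was led by genes of mitosis such as Ccnb1 and Cenpf, and the fifth (68 and 38 cells) by histone genes of S phase, although cell cycle list genes had been left out of the clustering.

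The sixth sub-cluster held the doublet calls. It had 51 control and 46 mutant cells at a median of 24913 and 25170 UMIs, and was led by retinal genes such as Neurog2, Rorb and Atoh7 (673 against 11.2 CPM in control). Scrublet had called 39 of its control cells (76.5%) and 28 of its mutant cells (60.9%) doublets. Only 1 further member, in the first sub-cluster of the mutant, was called in all other sub-clusters.

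**Figure D4:**
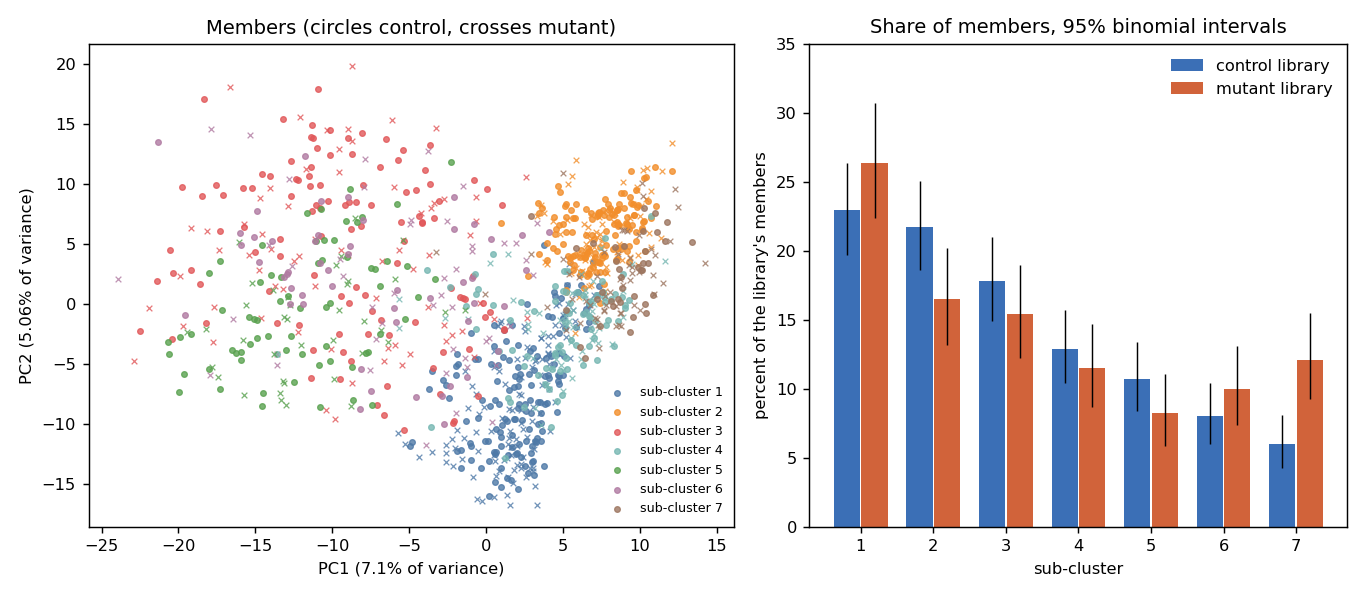
Left, the 1098 members on the first and second principal components (7.1% and 5.06% of variance), coloured by sub-cluster, with circles for control and crosses for mutant. Right, each sub-cluster as a percent of its library's members with exact 95% binomial intervals for counting error, where sub-cluster 7 holds 5.97% of control and 12.1% of mutant members and the other pairs of intervals overlap.

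Sub-cluster shares differed little between the libraries apart from the seventh. It was 5.97% of control and 12.1% of mutant members, a ratio of 2.03 with a counting interval of 1.32 to 3.15. The second was 21.7% and 16.5%, a ratio of 0.758 (0.565 to 1.01), and the first 23% and 26.4%, a ratio of 1.15 (0.897 to 1.47). No test between genotypes was possible, and a difference in dissection of 1 pool cannot be told apart from genotype.

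Between the genotypes few genes differed by 2-fold in the members. The largest ratios were those of Y-linked genes, and many of the others ranked highest were carried by very few cells. Of 11408 genes that reached 50 UMIs in the members of both libraries together, 67 (0.587%) were at least 2-fold higher in mutant and 39 (0.342%) at least 2-fold lower, with a median gene of -0.02 (log2) and 90% of genes between -0.37 and 0.46. These counts moved widely with the settings, from 10 to 204 higher and from 9 to 158 lower, the last among members that had Xist but no Y-linked transcript. Intervals lay above 1 for 1015 genes (8.9%) and below 1 for 1269 (11.1%). The 10 higher genes by rank were Ctla2a, Myog, Actc1, Ttr, Ttn, Mt3, Gria2, Gngt2, Gja4 and Pkib. Myog, the myogenic factor myogenin, had 7 UMIs in control and 46 in mutant members, all of them in 5 cells or fewer in each library. Actc1 had 24 and 106 UMIs, of which the 5 richest mutant cells held 97.2%, and the summed skeletal muscle markers were at 23.5 CPM in control and 52.5 CPM in mutant members. Gja4, a gap junction gene of arterial and mural cells, was spread more widely, with 14 UMIs in 1.89% of control and 40 UMIs in 5.41% of mutant members, a ratio of 3.97 (2.11 to 7.89), and the 5 richest cells held 50% of the control and 35% of the mutant UMIs. Leaving out genes with over 25% of a library's UMIs in its 5 richest members, Gja4 among them, left 14 genes higher and 9 lower, a limit chosen after the values were seen. Of the 14, Kdm5d, Uty, Eif2s3y and Ddx3y are on the Y chromosome, and Xist and Tsix were among the 9 lower.

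The lower genes were broader. Crabp1 had UMIs in 25.8% of control and 20.3% of mutant members, with 676 and 204 UMIs. This was 60.8 CPM in control and 25.5 CPM in mutant (ratio 0.419, 0.356 to 0.491). In the other mesenchyme it was 0.08 higher on the log2 scale in mutant (0.04 to 0.12). Bcl11b, a zinc finger transcription factor gene, had 490 and 171 UMIs in 34% and 20.1% of members, 44.1 and 21.4 CPM, a ratio of 0.484 (0.405 to 0.578), with -0.55 (log2) in other mesenchyme. Ddit4l was at 78.7 and 41.6 CPM (ratio 0.529). It was at 198 and 108 CPM within the second sub-cluster and at 44.2 and 27 CPM in the other members. Mid1, which is X-linked, was at 17.7 and 7.25 CPM in members and also lower in the other mesenchyme and in neural retina (-1.0 each, log2). Sh3gl3 (13.7 and 5.62 CPM) and Slc1a1 (5.31 and 1.87 CPM) were lower in both mesenchymal groups. Krt15, Ptf1a, Gal and Dct had from 84.8% to 96.5% of their control UMIs in 5 cells. In the 619 control and 157 mutant members that had Xist but no Y-linked transcript, log2 ratios were -1.35 for Crabp1, -1.19 for Bcl11b and -0.65 for Mid1, against -1.26, -1.05 and -1.29 in all members.

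The rule genes other than Mgp differed little between the genotypes, with ratios from 0.831 to 1.18. Members of both libraries were chosen by UMIs of these same genes, so near-even ratios are partly set by that choice. Mgp was at 503 CPM in control and 824 CPM in mutant members, a ratio of 1.64 (1.58 to 1.7), and was higher by a like amount in other mesenchyme (log2 0.67 against 0.71 in members). Aldh1a2 was at 123 and 145 CPM (ratio 1.18, 1.09 to 1.27), but at -0.43 (log2) with cells thinned to 2000 UMIs and -0.08 without members that had markers of another class. Spp1 was at 607 and 504 CPM (ratio 0.831, 0.799 to 0.864), and it took the other sign among members with Xist and no Y-linked UMI (0.13, log2), without members that had markers of another class (0.13) and with cells thinned (0.61). Foxf2 was at 75.9 and 68 CPM (0.896, 0.803 to 0.999). Cldn11 (1.03), Foxc1 (0.959) and Tmem100 (0.981) had counting intervals that included 1, while over the alternatives Cldn11 ran from -0.10 to 0.63 and Tmem100 from -0.49 to 0.42 (log2). The leading genes Rarb (0.9), Crym (0.896) and Pgf (0.929) were close to even as well, with Rarb at 0.48 (log2) in thinned cells and 0.10 without members that had markers of another class, while Gucy1a1 was at 62.3 and 94.4 CPM (ratio 1.52, 1.37 to 1.68).

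All 13 measured pericyte and smooth muscle genes had a ratio above 1 in mutant members. Their median was 0.45 (log2) against -0.02 over all genes, 10 of the 13 had a counting interval above 1 (8.9% over all genes) and 2 were at least 2-fold higher. Those were Kcnj8, a potassium channel subunit gene of pericytes, at 13.3 CPM in control and 26.7 CPM in mutant (ratio 2.01, 1.62 to 2.49), and Ndufa4l2, at 28.2 and 57.3 CPM (2.04, 1.76 to 2.36). Abcc9, which forms that channel with Kcnj8, was at 15 and 26.5 CPM (1.76), Rgs5 at 59.9 and 105 CPM (1.75) and Acta2 at 237 and 351 CPM (1.48). The 5 richest cells held 36% of the mutant Kcnj8 UMIs and 33.7% of those of Rgs5. The other mesenchyme had a median of 0.28 for the same list. By sub-cluster, the summed list was lower in mutant in the third (1326 and 1046 CPM). It was higher in all the others, most so in the fifth (781 and 2023 CPM). Among the members that had Xist but no Y-linked transcript the list median was 0.34, Kcnj8 was at 0.93 and Rgs5 at 0.86, but Acta2 was at -0.38 (all log2). Without members that had 3 or more markers of another class, smooth muscle included, the list median was 0.14, Rgs5 was at 0.20 and Abcc9 at 0.08, and with 5 or more rule genes Rgs5 was at 0.28. The other-class filter drops members by these same list genes, 3 or more of which were seen in 65.4% of control and 73.4% of mutant members. Its values are therefore partly set by the filter and do not check the difference.

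Extracellular matrix genes were also mostly higher in mutant. Of 38 measured genes 34 had a ratio above 1, 28 a counting interval above 1 (8.9% over all genes), and the median was 0.26 (log2), against -0.02 over all genes and 0.21 for the list in other mesenchyme. Col8a1, a network-forming collagen chain of basement membranes, was the gene past 2-fold, with 309 UMIs in 17.3% of control and 491 UMIs in 32.3% of mutant members, 27.8 and 61.3 CPM, a ratio of 2.21 (1.91 to 2.55). In the other mesenchyme it was at -0.13 (log2). With members of at most 5% mitochondrial UMIs Col8a1 was at 0.47 (log2), below 2-fold. The basement membrane genes Col4a1 (209 and 291 CPM, 1.39) and Col4a2 (117 and 169 CPM, 1.44), the elastic fibre gene Eln (241 and 340 CPM, 1.41) and Postn (164 and 238 CPM, 1.45) followed below that size. Col14a1 went the other way, at 53.1 and 37.5 CPM (0.706). Igfbp7 (110 and 197 CPM, 1.78) and the growth factor gene Igf1 (185 and 283 CPM, 1.53) were the largest ratios of the IGF and imprinted list, whose median was 0.11.

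Cell cycle genes were lower in mutant members and slightly higher in mutant other mesenchyme. Their medians were -0.19 and 0.15 (log2), and 10 of 18 had a counting interval below 1 in members (11.1% over all genes). The members' median was 0.12 without those that had 3 or more markers of another class. Cenpf was at 201 and 144 CPM (0.713), Cenpe at 94.4 and 62.2 CPM (0.659) and Mki67 at 166 and 136 CPM (0.818, 0.758 to 0.882), but the share of members with Mki67 was 38.7% in control and 36.1% in mutant. Retinoic acid genes had a median of -0.01 with Crabp1 alone past 2-fold, and Cyp26a1 was at 38.6 and 45.3 CPM (1.17), but at -0.73 (log2) with cells thinned to 2000 UMIs. The hedgehog targets Ptch1 (0.802) and Gli1 (0.773) were lower in members and in other mesenchyme (-0.31 and -0.50, log2), within a list median of -0.08. In the Wnt list (median -0.05) Lef1 was at 31.8 and 19 CPM (0.598, 0.491 to 0.725) and Rspo1 at 23.8 and 15.2 CPM (0.639). The lists for transcription factors (0.02), meningeal fibroblasts (0.07), TGF-beta and BMP (-0.08), vessel signals (-0.01), barrier and transport (-0.03) and p53 targets (-0.02) had medians within 0.1 of the -0.02 of all genes. The neural retina list had a median of 0.25 in members (-0.76 in those with Xist but no Y-linked transcript, 0.78 without Scrublet doublets) and 0.41 in other mesenchyme. What share of it came from free RNA or from doublets not called was not tested.

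**Figure D5:**
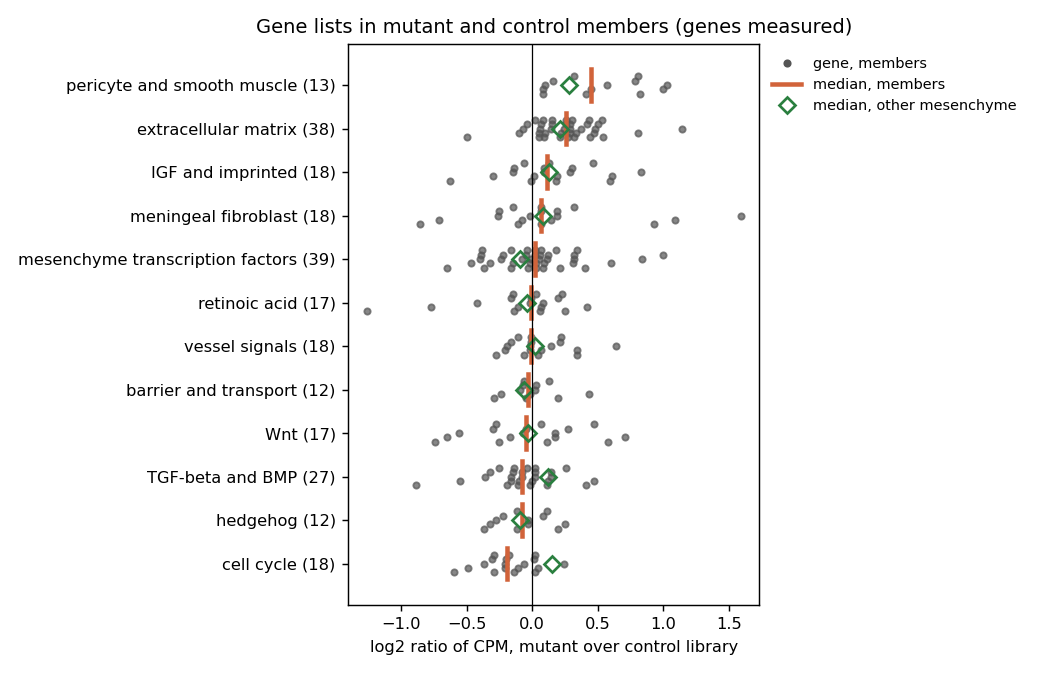
Log2 ratio of CPM, mutant over control, for each measured gene of 12 lists in members (grey points), with the list's median in members (orange bar) and in the other mesenchyme (green diamond). All 13 pericyte and smooth muscle genes lie right of 0 (median 0.45), and the cell cycle medians lie on opposite sides of 0 (-0.19 in members and 0.15 in other mesenchyme).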

How the data were processed

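Eye cup cells of 1 control and 1 mutant library were grouped by labelled genotype. The deposited values are UMI counts that the authors had not normalized, from reads aligned to mm10 with Cell Ranger (7.1.0 in the submitters' notes, 3.1.0 in the matrix headers). The barcodes were 13017 and 13880 with 132436812 and 135678970 UMIs. The study's filters had not been applied, and its stated limit of 2000 UMIs would remove 79.1% and 80.6% of barcodes, every member included, so it was not used. Antisense, overlapping and near-identical genes may share reads.

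UMIs were summed over members per library and scaled to CPM, with scipy 1.17.1. Intervals were Poisson (sums), Clopper-Pearson (shares) and conditional binomial (ratios), at 95%. Genes at 0 were given 3 counts for ratios. Genes needed 50 UMIs. The ratio code was tested on simulated data. Sub-clusters used Leiden in scanpy 1.11.5 (resolution 0.5, 20 components, 15 neighbours, 1000 genes). Doublet rates by Scrublet, 3.55% and 3.40%, were below the 9.55% and 10.4% expected, so doublets remained. The members and gene lists were chosen with earlier results of these data known. Named were the rule genes, Myrf, the 25 highest and 10 lowest genes against other mesenchyme and 10 each way between genotypes, by the interval bound nearest 1 (rule, mitochondrial, haemoglobin, ribosomal, Xist, Tsix, Y-linked, Gm and Rik genes left out), and list genes high in CPM or past 2-fold. List genes named below 2-fold were chosen after their values were seen. Alternatives covered the rule, depth, doublets, sex, other-class markers, minimum counts and scaling. Results for a few list and leading genes are not reported here.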

Additional observations from a re-analysis of the deposited data

Results flagged for a closer look

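Y-linked transcripts were found in 57.4% of mutant members and in 0 of the 636 control members, a signal outside the genotype comparison. Xist was found in 97.3% of control members and 43.7% of mutant ones, and 45 mutant members had both kinds of UMI.

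For 6 of the named genes the log2 ratio of mutant over control had one sign in members and the other in the other mesenchyme, with a counting interval off 0 in each, which drew attention to them. Genes not named in the report were not screened for this. With 1 library per genotype the difference was not tested. Crabp1 was at -1.26 in members and 0.08 in other mesenchyme, and Col8a1 at 1.14 and -0.13. Crabp1 was found in 25.8% of control and 20.3% of mutant members and Col8a1 in 17.3% and 32.3%, though the 5 richest members held 25.5% of the mutant Crabp1 and 26.2% of the control Col8a1 UMIs, just over the 25% limit used for genes carried by few cells. Over the alternatives Col8a1 ran from 0.47, at a mitochondrial limit of 5%, to 1.73 when thinned. The other 4 rested on few cells. Ttr was at 2.98 in members and -3.16 in other mesenchyme, with 98% of its 51 mutant UMIs in 5 members. Krt15 was at -3.04 and 1.26, with 96.5% of its 57 control UMIs in 5 members. Ptf1a was at -1.89 and 0.58, with 86.1% of its 72 control UMIs in 5 members. Gal was at -1.28 and 1.26, with 84.8% of its 125 control UMIs in 5 members.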

How the results depend on the processing

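No paired analysis was possible because each genotype had 1 library. In all, 856 values were recomputed under 17 alternatives. Of values that answer a comparison, 277 stayed the same and 35 moved. Shares and list medians were judged by their interval, and counts of genes, which have none, by their fold difference from the main count. Among the 35, the list medians for transcription factors, TGF-beta and BMP, Wnt, cell cycle, dissociation stress and neural retina changed sign under at least 1 alternative. Of values for the screened genes, 430 stayed within their interval, 94 moved and 20 reversed. Causes were not tested.

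Thinning cells to 2000 UMIs left 91 control and 48 mutant members. The share ratio was then 0.479 over kept cells and 0.771 over mesenchyme. Between genotypes 10 genes were higher and 12 lower, fewer genes being tested, and against other mesenchyme 136 were higher and 326 lower. List medians were -0.37 (transcription factors) and -0.66 (cell cycle). Leaving out members with 3 or more markers of another class (188 and 88 left) gave ratios of 0.42 and 0.651, 38 higher genes, and medians of -0.11 (transcription factors), 0.29 (meningeal), -0.36 (hedgehog), 0.11 (TGF-beta and BMP), 0.36 (Wnt), -0.22 (barrier), 0.12 (cell cycle) and -0.27 (p53). Keeping members that had Xist but no Y-linked transcript gave 158 lower genes and medians of -0.09 (barrier) and -0.76 (neural retina). Leaving out members with retina genes, an alternative added after the data were seen, gave a ratio of 0.582 over kept cells and 0.02 for TGF-beta and BMP, and means over cells gave 0.04 for the latter. Leaving out Scrublet doublets moved the neural retina median to 0.78, a mitochondrial limit of 5% the cell cycle median to -0.30, and leaving out cells over 20000 UMIs the dissociation stress median to 0.23 and the higher genes to 37. A minimum of 20 UMIs gave 204 higher and 99 lower genes, a minimum of 100 gave 21 and 21, and leaving out genes carried by few cells, also added later, gave 14 and 9.

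Log2 ratios reversed for Spp1 (0.61 thinned, 0.13 with Xist and no Y-linked UMI, 0.13 without other-class markers), Foxf2 (0.01, Xist), Aldh1a2 (-0.43 thinned, -0.08 without other-class markers), Rarb (0.48 and 0.10, likewise), Cyp26a1 (-0.73 thinned), Acta2 (-0.38), Pkib (-1.09) and Actc1 (-1.43) with Xist and no Y-linked UMI, Actc1 (-3.07) and Myog (-0.61) at up to 20000 UMIs, Krt15 (0.99 with 5 or more rule genes, 1.48 at 5% mitochondrial), Gal (0.55 without retina genes) and Dct (0.89 with 5 or more rule genes, 0.85 without Spp1 and Mgp in the rule, 0.23 with Xist but no Y-linked UMI). Of the 25 leading genes, 11 were still at least 2-fold higher in both libraries when thinned, 21 without other-class markers, 23 with Xist but no Y-linked UMI, and 24 at 5% mitochondrial, at up to 20000 UMIs or at a minimum of 100. All 25 were under the other alternatives that recomputed them. Over the alternatives Rgs5 ran from 0.20 to 1.77 and the pericyte and smooth muscle median from 0.14 to 0.76. Both low ends came from leaving out members by other-class markers, which include these genes.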

Other observations

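The IGF and imprinted gene list held both signs between the genotypes in members. Igfbp7, Igf1, Igfbp6 (ratio 1.51) and Igfbp5 (923 and 1271 CPM, ratio 1.38) were higher in mutant, and Igfbp3 (ratio 0.645) and the growth-restraining imprinted gene Cdkn1c (1660 and 1350 CPM, ratio 0.813) were lower. Of the 18 genes, 11 had a counting interval above 1 and 5 below 1, against 8.9% and 11.1% of all genes. Of 13 dissociation genes measured, Junb was at 12.3 and 29.1 CPM (ratio 2.36), while the list median was -0.15 (log2).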
